A study of Mus musculus with 20 samples.

Results

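The mitochondrial ribosomal protein genes of mouse skeletal muscle were followed across endurance training and a transgene, from arrays of 20 mice. Members were all probe sets whose single platform symbol starts with Mrpl or Mrps, the names given to proteins of the large and the small subunit. A probe set is a group of array probes for the same transcript, and each gene was represented by the probe set with the highest mean intensity over the 20 arrays. The rule took 127 probe sets and left 74 genes, 47 Mrpl and 27 Mrps, out of 12393 genes with a single symbol. All 74 passed the filter on dim probe sets and were tested.

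The mitochondrial ribosome sits in the mitochondrial matrix and translates only the messages of mitochondrial DNA, which encode core subunits of the respiratory chain and of ATP synthase. Its RNA comes from mitochondrial DNA, but every one of its proteins is encoded in the nucleus, made on cytosolic ribosomes and imported. Many of the proteins have a bacterial counterpart, and others are particular to mitochondria. In muscle, endurance training is known to raise mitochondrial content, which requires subunits from both genomes.

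Each of the 4 groups held 5 mice. The groups were untrained wild-type mice, trained wild-type mice, untrained transgenic mice and trained transgenic mice, and the transgene is named by the series only as over-expressed MHC-I. The construct, the promoter or cell type that drives it, the strain, the muscle, the sex, the age, the training protocol and any batch are not stated in the labels. Groups were read from the sample titles, in which WTUT, WTT, TGUT and TGT stand for them in that order. A free-text field that describes mice of every group as transgenic and trained conflicts with those titles and was not used. Each array is a separate mouse, so p-values measure the spread between mice.

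The arrays were alike in brightness, with medians from 157 to 175 and correlations between 0.957 and 0.994 for any pair. The array of trained wild-type mouse wtt-137 had 822 empty cells and that of trained transgenic mouse TGT-133 had 386, of 1745 in the table, and 4 of these fell on members. Skeletal muscle genes, among them those of muscle actin (Acta1) and fast myosin (Myh4), had summed intensities from 100000 to 111000 over the mice, and none of the measured markers of other cell types was listed at 0. H2-K1, a class I histocompatibility heavy chain, differed by -0.12 ± 0.16 log2 (SE) between transgenic and wild-type mice (limma, adjusted p = 0.724). Myh7, the slow myosin heavy chain, differed by -1.27 ± 0.26 log2 (adjusted p = 0.0201). Neither reading checks the genotype labels, since the construct is not described. In muscle RNA, fewer cells of a type and less RNA per cell cannot be told apart.

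Training was compared first. Averaged over both genotypes, 19 of the 74 genes rose and 0 fell at an adjusted p under 0.05 (limma, Benjamini-Hochberg over 13576 probe sets). Of all probe sets tested, 2.41% rose and 2.59% fell in the same contrast. The difference was above 0 in 69 of the 74 genes, and the members' median was 0.129 log2 against 0.002 for all probe sets. At an unadjusted p under 0.05, 38 members were higher, against 9.54% of all probe sets, and 0 lower, against 11.1%. The differences were small, from -0.12 log2 in Mrpl41 to 0.42 log2 in Mrpl34, so the largest amounted to 1.34-fold. Fold changes here are on the scale of log2(intensity + 66.7), which understates changes of dim genes.

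**Figure D1:**
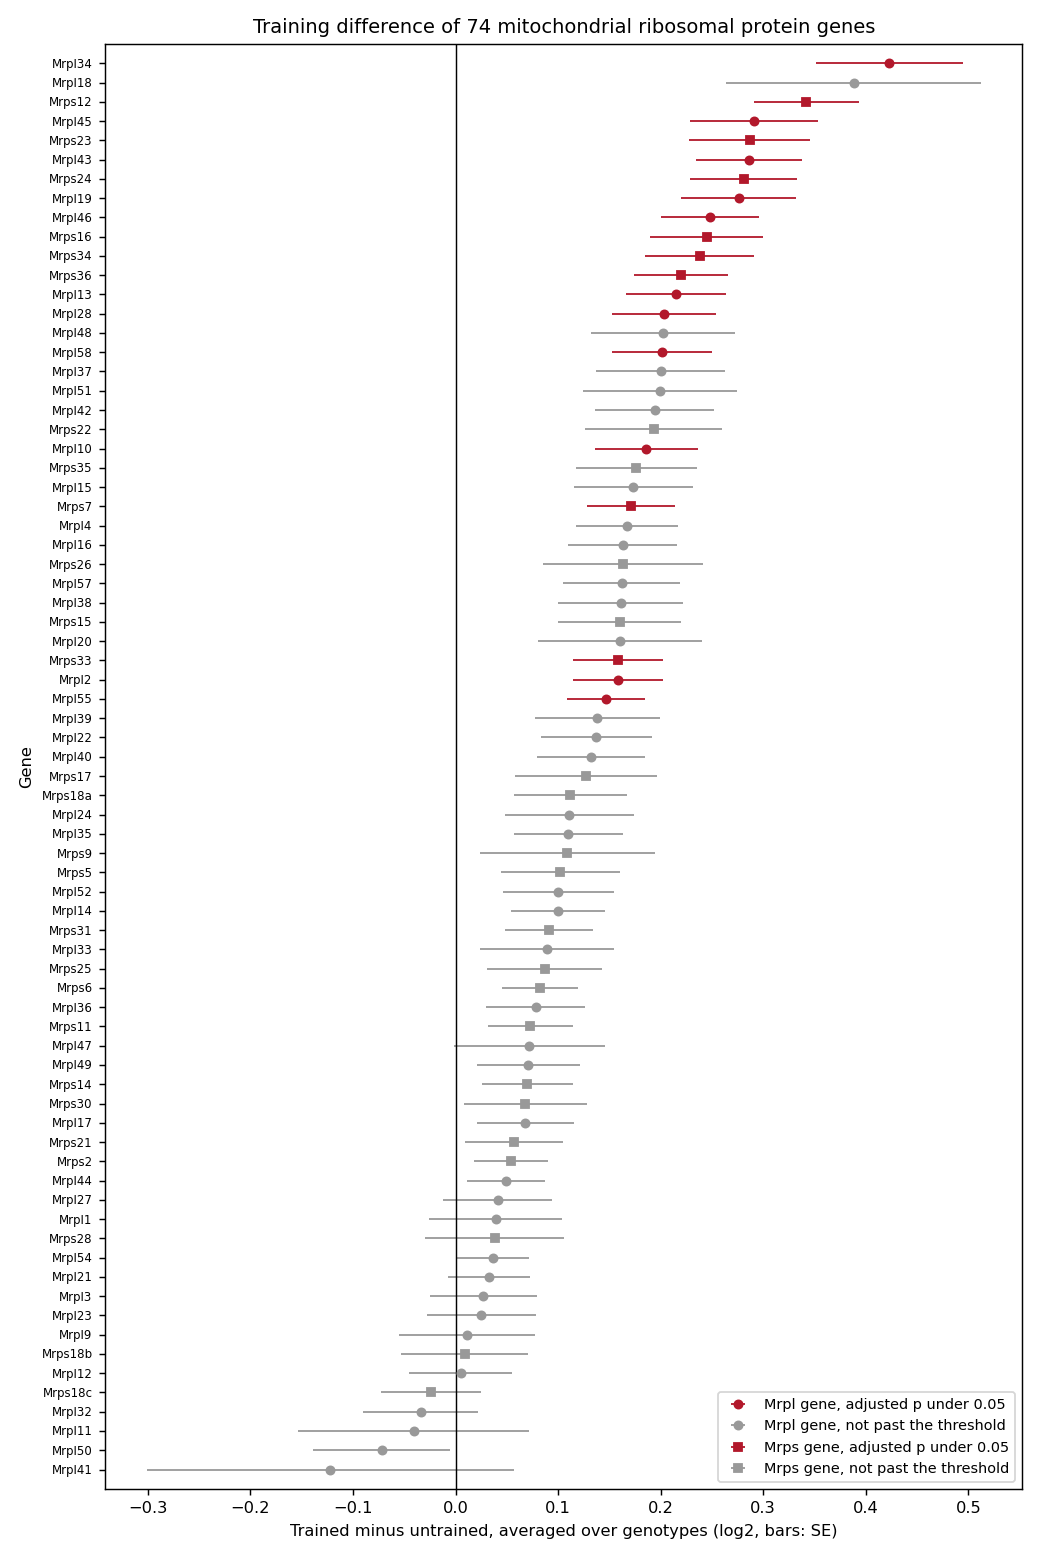
Difference between trained and untrained mice, averaged over genotypes, for each of the 74 genes (points, log2 scale, with standard errors as bars; circles are Mrpl and squares are Mrps genes, red where the adjusted p is under 0.05). The points to the right of 0 number 69, and the 19 red ones lie between 0.15 and 0.42.

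Mrps12, the counterpart of a bacterial protein of the decoding centre in the small subunit, gave the smallest p-value among the members. Its intensity in wild-type mice was 397, 370.3, 440.3, 434 and 394 untrained and 486, 495, 607, 514 and 475 trained. Transgenic mice had 363, 340.3, 439.5, 343 and 407 untrained and 524, 519, 479.5, 554 and 500 trained. All 10 trained mice lay above all 10 untrained mice, which held for no other member and for 0.0737% of all probe sets. The difference was 0.34 ± 0.05 log2 (SE), 1.27-fold (adjusted p = 0.003), with group means rising from 407 ± 29.4 (SD, n = 5) to 515 ± 53.2 in wild-type and from 379 ± 43.2 to 515 ± 27.7 in transgenic mice. Its probe set may bind more than a single transcript.

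Mrpl34, a large-subunit protein with a bacterial counterpart, had the largest difference. Wild-type mice gave 403, 479.8, 466, 459.6 and 501 untrained and 596, 540.1, 604, 661 and 756 trained. The transgenic values were 363, 338, 474, 398 and 494 untrained and 649, 522, 490, 672 and 607 trained. The wild-type groups did not overlap, whereas 1 trained transgenic value, that of mouse TGT-133, lay just below the highest untrained one. The gene rose by 0.42 ± 0.07 log2, 1.34-fold (adjusted p = 0.00528).

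Mrpl43, a large-subunit protein found only in mitochondrial ribosomes, stood at 430.5, 443, 485, 421 and 489 in untrained wild-type mice and 520.1, 502, 586, 589.6 and 650.2 in trained ones. It stood at 400.2, 377, 439, 375 and 464 in untrained and 535, 461, 489, 544 and 546 in trained transgenic mice. The wild-type groups were apart and the transgenic groups overlapped by 1 value on either side. The rise was 0.29 ± 0.05 log2, 1.22-fold (adjusted p = 0.00722), and the fitted differences of the genotypes were alike, at 0.29 ± 0.07 log2 in wild-type and 0.29 ± 0.07 log2 in transgenic mice.

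Mrps24, a small-subunit protein with a bacterial counterpart, came next. Untrained wild-type mice gave 883, 900.1, 957, 841 and 899.7, and trained ones 1109, 975, 1126, 1154 and 1137. Transgenic mice gave 791, 764, 937, 877 and 933 untrained and 1172, 1087, 909.5, 1129.7 and 1023 trained. Again the wild-type groups were apart, and trained transgenic mouse TGT-133 lay within the untrained range. Mrps24 rose by 0.28 ± 0.05 log2, 1.22-fold (adjusted p = 0.00858). A dimmer probe set for the same gene gave 0.32 ± 0.09 log2 (adjusted p = 0.0531), and both may bind more than a single transcript.

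Mrpl46, found only in mitochondrial ribosomes, read 284, 260.2, 340.4, 348 and 293 untrained and 375, 367, 412, 385 and 357 trained in wild-type mice. The transgenic mice read 289, 316, 301, 330.4 and 331 untrained and 398, 328, 363, 398 and 411 trained. The trained wild-type mice were all above the untrained ones, and trained transgenic mouse TGT-132 was not above every untrained one. The rise was 0.25 ± 0.05 log2 (adjusted p = 0.0104).

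**Figure D2:**
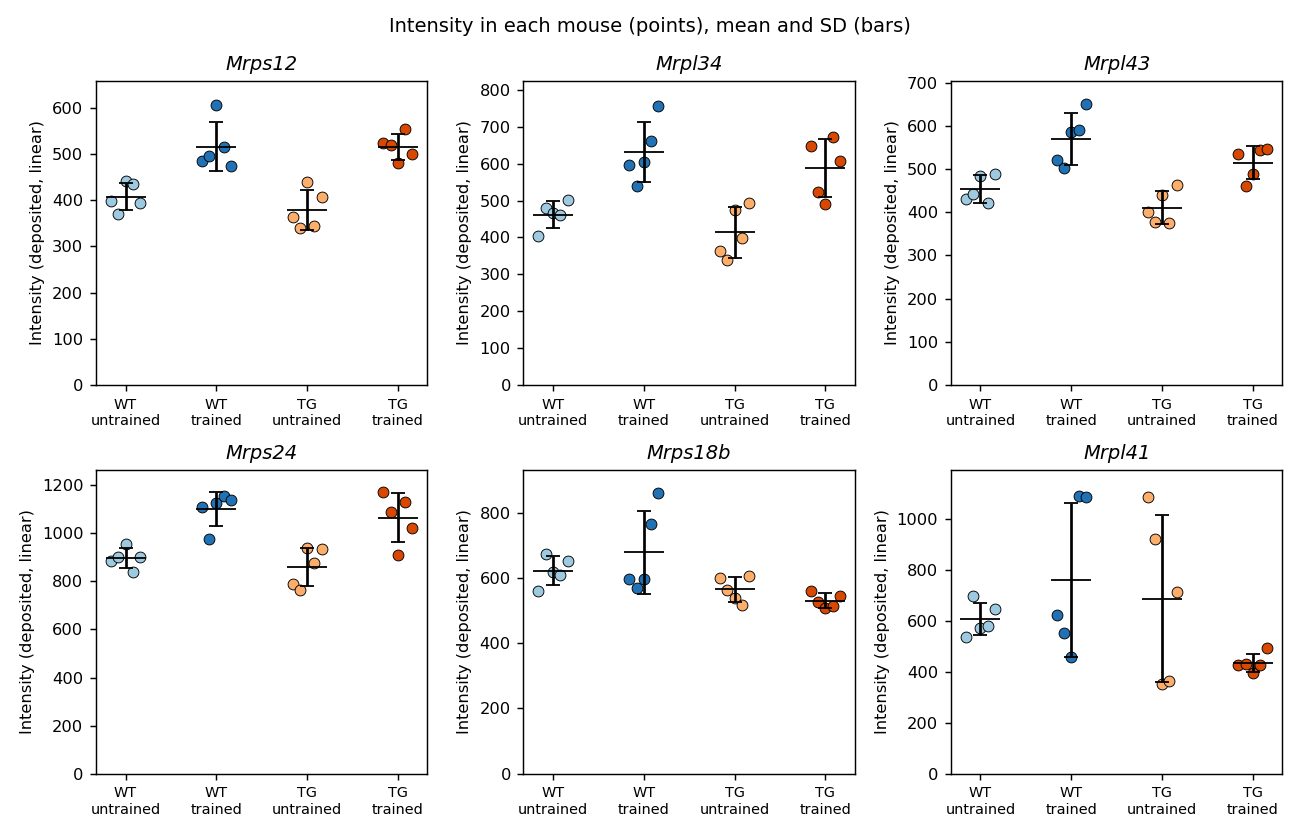
Deposited intensity of 6 genes in each mouse (points), with the group mean and SD as bars, on linear axes that start at 0; WT is wild-type and TG transgenic. In Mrps12 every trained mouse is above every untrained mouse, while Mrpl41 ranges from 351 to 1085 among untrained transgenic mice.

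The other large-subunit genes past the threshold were Mrpl45, Mrpl19, Mrpl13, Mrpl28, Mrpl58, Mrpl10, Mrpl2 and Mrpl55. Mrpl45, which lies beside the exit tunnel and holds the ribosome to the inner membrane, rose by 0.29 ± 0.06 log2 (adjusted p = 0.0153). In untrained wild-type mice its values were 440.3, 421, 472, 426 and 495, and in trained ones 538, 562, 601, 594 and 561. The transgenic mice had 465, 372, 539, 418 and 512 untrained and 623, 555, 468, 672 and 549.6 trained. The wild-type groups were apart and the transgenic groups overlapped. Mrpl58, a peptidyl-tRNA hydrolase that releases stalled chains and is built into the large subunit, rose by 0.20 log2, from 364 ± 14.3 to 431 ± 36.5 in wild-type and from 361 ± 30.8 to 423 ± 45.8 in transgenic mice. Mrpl10, which belongs to the stalk that factors bind, rose by 0.19 log2. Mrpl2, near the peptidyl transferase centre, rose by 0.16 log2. Mrpl19, a large-subunit protein with a bacterial counterpart, was read at a low intensity, 161 on average over all mice, and rose by 0.28 ± 0.06 log2. Mrpl55 had the smallest rise, 0.15 log2.

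The remaining small-subunit genes past the threshold were Mrps23, Mrps34, Mrps16, Mrps7 and Mrps33. Mrps16, a core protein with a bacterial counterpart, read 774, 811, 956, 890.2 and 735 untrained and 922, 939, 1125, 905 and 937 trained in wild-type mice. The transgenic values were 719, 802, 864, 899.9 and 858 untrained and 1058, 941, 1002, 1062 and 1069.6 trained. Here the transgenic groups were apart and the wild-type groups overlapped. Mrps16 rose by 0.245 ± 0.055 log2 (adjusted p = 0.0181). Mrps23 rose by 0.29 ± 0.06 log2 on the brighter of its probe sets, and the other gave 0.36 ± 0.08 log2 (adjusted p = 0.0194). Mrps34, needed for a stable small subunit, rose by 0.24 ± 0.05 log2 (adjusted p = 0.0174). Mrps7, the counterpart of a bacterial protein that binds ribosomal RNA early in assembly, rose by 0.17 ± 0.04 log2.

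Mrps36 carries a small-subunit name, but its protein is now assigned to the 2-oxoglutarate dehydrogenase complex of the citric acid cycle. It read 811, 846, 922, 847 and 804 untrained and 952, 915, 1026, 973 and 1002 trained in wild-type mice. The transgenic mice gave 814, 774, 866, 873 and 876 untrained and 1058, 960.5, 873, 1082 and 1105 trained. Only 1 trained mouse in each genotype reached down into the untrained range. The rise was 0.22 ± 0.05 log2 (adjusted p = 0.0134). Without this gene, 18 of 73 members rose.

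Both subunits and both evolutionary classes held genes that rose. By symbol, 11 of 47 Mrpl genes passed the threshold, with a median difference of 0.137 log2. So did 8 of 27 Mrps genes, with a median of 0.112 log2, and Mrps36 is counted among these. Mrps30 and Mrps18a sit in the large subunit by structure in spite of their names. Counting them there, 11 of 49 large-subunit genes rose. Of 44 genes with a bacterial counterpart, 11 rose and the median was 0.106 log2. Of 27 genes classed as particular to mitochondria, 6 rose and the median was 0.158 log2. Mrps18a and Mrps18b were classed there, although Mrps18b is a relative of a bacterial protein, and neither rose past the threshold. Mrpl57, Mrpl58 and Mrps36 were placed in neither class, and Mrpl58 and Mrps36 rose. The difference between subunits or classes was not tested.

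Other members did not pass the threshold, some with differences near 0 and some with differences as large as in genes that passed. Mrpl12, a stalk protein, is also known to bind mitochondrial RNA polymerase. Wild-type values were 1787, 1834, 1969.7, 2018 and 1657 untrained and 1748, 1894, 1885, 1650.3 and 1915 trained. Transgenic values were 1856, 1951, 1777, 2040.3 and 1787 untrained and 2113, 1702, 2089, 1808 and 1964 trained. All 4 groups overlapped. The difference was 0.01 ± 0.05 log2 (adjusted p = 0.972), and its 95% confidence interval ran from -0.10 to 0.11 log2. Mrpl42, a large-subunit protein particular to mitochondria, gave 0.19 ± 0.06 log2 (adjusted p = 0.0569). Mrps22, Mrpl44 and Mrpl3, genes known from inherited defects of mitochondrial translation, gave 0.19 ± 0.07, 0.05 ± 0.04 and 0.03 ± 0.05 log2, none past the threshold.

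Mrpl18, the counterpart of a bacterial protein that binds a small ribosomal RNA, had the second largest difference without passing. In wild-type mice it read 536, 494, 491, 391 and 559.9 untrained and 621, 643, 649.7, 639 and 691 trained. Among transgenic mice it read 429, 309, 764, 420.4 and 576 untrained and 714, 733, 415, 894 and 646 trained. The wild-type groups were apart, while untrained transgenic mouse TGUT-145 read higher than 4 of the 5 trained ones and trained mouse TGT-133 lower than 4 of the 5 untrained ones. The difference was 0.39 ± 0.12 log2 (adjusted p = 0.0755).

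Taken separately, the genotypes gave the same sign for most members. In wild-type mice 0 of 74 genes passed the adjusted threshold, as did 0% of all probe sets (limma). At an unadjusted p under 0.05, 32 members were higher and 0 lower, against 4.74% of all probe sets higher and 7.87% changed in either direction. The difference was above 0 in 72 of 74 genes, with a median of 0.143 log2 against 0 for all probe sets. The trained and untrained wild-type mice did not overlap in 17 members, each higher when trained, against 1.83% of all probe sets. Of the 19 genes named above, Mrpl19 had the smallest p here, with 0.36 ± 0.08 log2 (adjusted p = 0.181).

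In transgenic mice Mrps12 rose by 0.39 ± 0.07 log2 (adjusted p = 0.0355), as the only member past the threshold; 0 fell. Of all probe sets 0.133% rose and 0.177% fell. The call rests on the shared spread of all 20 mice. It was lost when wild-type mice WTT-129 or wtt-134 or transgenic mice TGUT-131, TGUT-139, TGUT-147, TGT-128, TGT-132, TGT-140 or TGT-143 were left out, although the difference stayed between 0.36 and 0.41 log2. The number of members past the threshold was 12 without mouse TGUT-145, where 2.2% of all probe sets rose, and 4 without TGT-133, where 0.25% did. It was 3 without wtt-137 (0.457% of all probe sets) or TGUT-146 (0.295%) and 2 without WTT-144 (0.236%). At an unadjusted p under 0.05, 27 members were higher, against 7.12% of all probe sets, and 0 lower. The median was 0.113 log2, and 63 of 74 differences were above 0. Trained and untrained transgenic mice did not overlap in Mrps12, Mrps16, Mrpl4 and Mrps6, against 1.19% of all probe sets.

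The training contrasts of the genotypes share no mice. Of the 74 genes, 61 were above 0 in both, 0 below 0 in both, 11 above 0 in wild-type mice only and 2 in transgenic mice only. Across all probe sets, 35.1% were above 0 in both. Over the 74 genes the differences correlated with r = 0.58 (Spearman's rho = 0.67), and over all probe sets with r = 0.51. These are descriptions, since genes measured on the same arrays are not independent. The interaction, which asks whether training differed between genotypes, called 0 members and 0% of all probe sets. At an unadjusted p under 0.05 it held 0 members, against 2.91% of all probe sets, and the members' median was -0.027 log2. An interaction that misses the threshold does not show equal responses: for Mrps12 it was 0.10 log2, with a 95% confidence interval from -0.12 to 0.31, and for Mrpl34 it was 0.05, from -0.25 to 0.36.

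**Figure D3:**
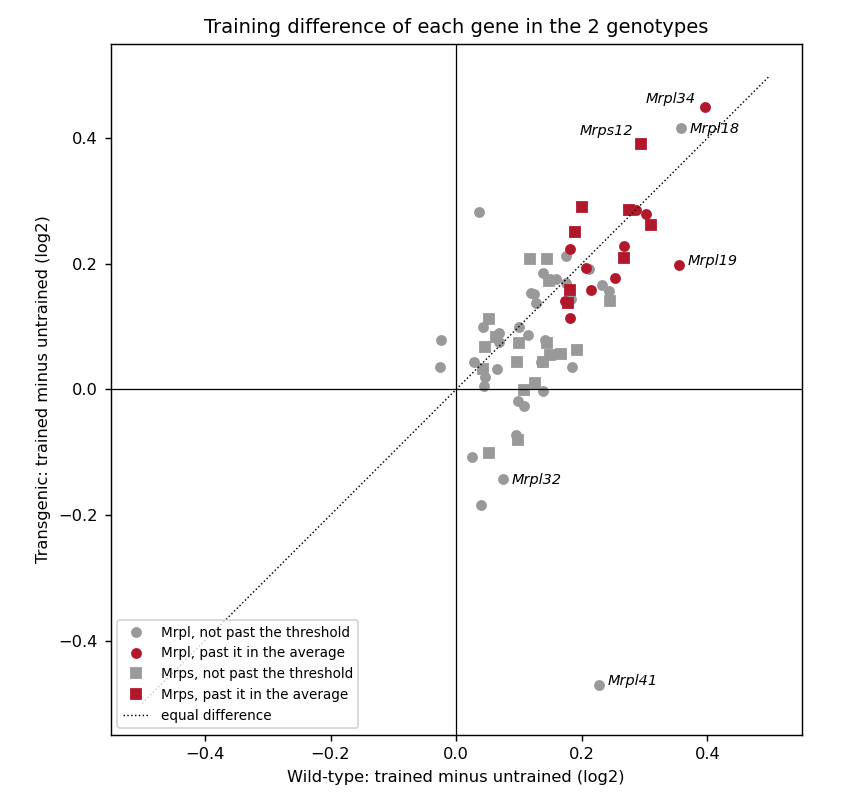
Training difference of each gene in wild-type mice (x axis, log2) against that in transgenic mice (y axis, log2), with the line of equal difference dotted and the 19 genes past the threshold in the average in red. Most of the 74 genes, 61, lie above 0 on both axes, and Mrpl41 stands apart at 0.23 and -0.47.

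Mrpl41 had the widest spread for its mean among the members in trained wild-type and in untrained transgenic mice. This large-subunit protein, particular to mitochondria, read 537, 696, 571, 580.4 and 646 in untrained wild-type mice and 621, 554, 456, 1088 and 1085 in trained ones. It read 1085, 923, 351, 365 and 712 in untrained and 426, 430.4, 394, 428 and 494 in trained transgenic mice. The 5 trained transgenic mice lay close together, while the trained wild-type and untrained transgenic groups each held mice near and far above that level. The interaction was -0.70 ± 0.36 log2 (unadjusted p = 0.066, adjusted p = 1). Between trained transgenic and trained wild-type mice the difference was -0.65 ± 0.25 log2 (adjusted p = 0.315). The averaged training difference of the second tested probe set for this gene was -0.11 ± 0.20 log2, against -0.12 ± 0.18 log2 for the first.

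To set whole mice side by side, for each mouse the median over members of the deviation from the gene's own mean over the 20 mice was taken (log2). In wild-type mice it averaged -0.049 ± 0.033 (SD, n = 5) untrained and 0.097 ± 0.049 trained, and these groups did not overlap. Transgenic mice averaged -0.081 ± 0.096 untrained and 0.031 ± 0.079 trained, with overlap. Trained mouse TGT-133 stood at -0.103, with 18 of 74 genes above their own mean, and untrained mice TGUT-145 and TGUT-147 stood at 0.009 and 0.029. The other 4 trained transgenic mice lay between 0.026 and 0.097, and the other 3 untrained ones between -0.19 and -0.11. Without mouse TGT-133, whose array has 386 empty cells, 22 members rose on average over genotypes, as did 2.91% of all probe sets, and 5 rather than 1 had every trained above every untrained mouse. That last count was 2 without untrained wild-type mouse WTUT-136 and 2 without trained transgenic mouse TGT-132. The share of all probe sets without overlap is not given for these fits. Leaving out a mouse makes such separation easier for any probe set, so these counts are not a result about the members. Without both arrays rich in empty cells 18 rose, 16 of them among the 19, as did 1.92% of all probe sets.

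**Figure D4:**
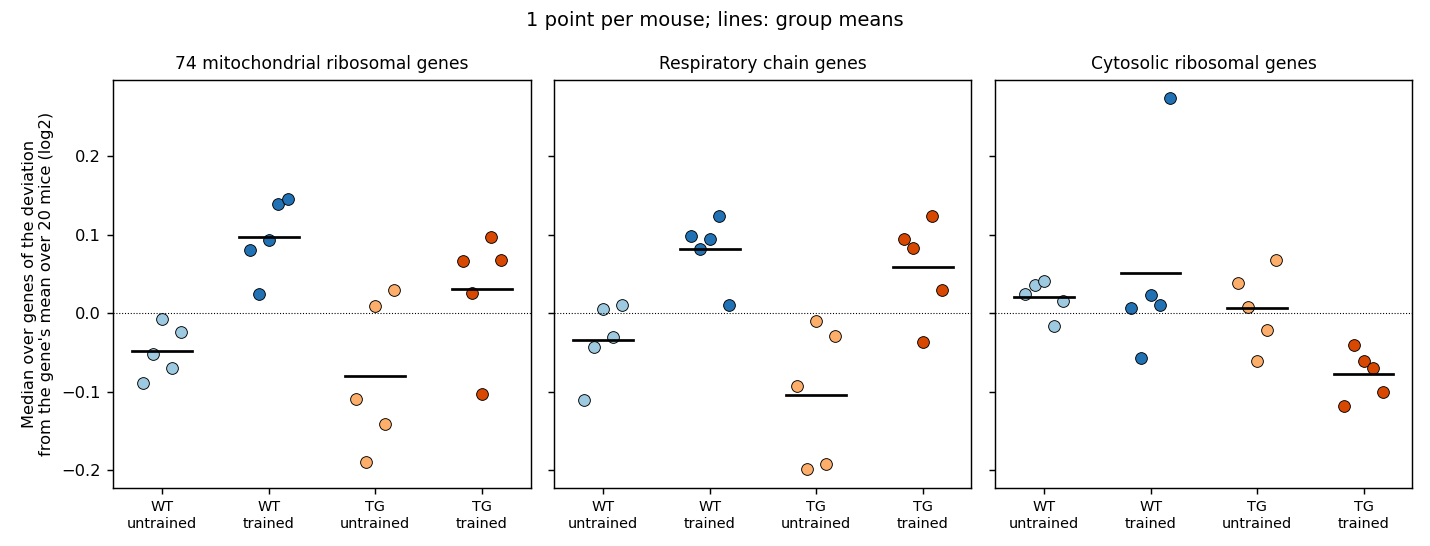
Median deviation of a gene list from its genes' own means in each mouse (points, log2) for the mitochondrial ribosome, the respiratory chain and the cytosolic ribosome, with group means as lines. For the mitochondrial ribosome the trained wild-type mice lie from 0.024 to 0.146, above all untrained wild-type mice at -0.089 to -0.008.

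Leaving out each mouse in turn, the number of members that rose on average ran from 12 to 26. It was 12 without transgenic mice TGT-128, TGT-140, TGUT-131 or TGUT-139, where 1.18% to 1.38% of all probe sets rose, and 26 without transgenic mouse TGUT-145, where 4.67% did. In each of the 20 fits 12 genes rose: Mrpl13, Mrpl19, Mrpl34, Mrpl43, Mrpl45, Mrpl46, Mrps12, Mrps16, Mrps23, Mrps24, Mrps34 and Mrps36. Mrpl2 rose in 5 of them, Mrps33 in 7, Mrpl10 and Mrpl55 in 10 each. A reading of RNA integrity, the 3' over 5' log2 ratio of Gapdh, averaged between 0.008 and 0.015 in the 4 groups. With this ratio as a covariate 27 members rose, and of all probe sets 4.06% rose and 5.46% fell, so more were called among both.

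Genes of the circadian clock moved with the groups. A clock score was taken as the mean log2 level of Arntl and Npas2, activators of the clock, minus that of Dbp, Tef, Per2, Per3, Nr1d1 and Nr1d2, which they drive. Wild-type mice averaged -0.52 ± 0.278 (SD, n = 5) untrained and -1.09 ± 0.551 trained, and transgenic mice -1.04 ± 0.356 untrained and -1.64 ± 0.342 trained. With the score as a covariate 0 members passed the adjusted threshold, and 0 of all probe sets did. The 19 genes all stayed above 0, 25 members were higher and 0 lower at an unadjusted p under 0.05, against 5.79% of all probe sets higher and 4.29% lower, and the members' median was 0.114 log2. Time of sampling is not stated in the labels, and its part in the result was not tested.

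Markers of other cell types were compared in the same contrast. Among fibroblast markers 1 of 4 rose, Col3a1, by 1.02 ± 0.28 log2, and the summed intensity of the 4 ran from 3320 to 5640 untrained and 4650 to 5970 trained in wild-type mice and from 5050 to 5720 untrained and 4260 to 6160 trained in transgenic mice. Among muscle fibre genes 1 of 8 rose, Myh1, a fast myosin heavy chain, by 0.22 ± 0.05 log2, and the summed intensity ran from 100000 to 111000 over all groups. Of the tested macrophage (5), T and B cell (3), adipocyte (3), endothelial (4), red cell (2), nerve (2) and slow fibre (5) markers 0 rose and 0 fell with training. The part of these cells in the members' difference was not tested.

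The transgene was not accompanied by a change of any member past the threshold. In untrained mice 0 of 74 genes were called, against 0.11% of all probe sets, and 0 had an unadjusted p under 0.05, against 8.12%. The members' median difference was -0.031 log2. Among trained mice 0 were called, against 0.0516%, while 10 were lower and 0 higher at an unadjusted p under 0.05, against 8.32% of all probe sets lower. The median there was -0.05 log2. On average over training 0 were called, against 1.23% of all probe sets, 12 were lower and 0 higher at an unadjusted p under 0.05, against 10.6% lower, and 50 of 74 differences were below 0, with a median of -0.037 log2. No member had all transgenic mice on one side of all wild-type mice, against 0.0442% of probe sets. Without trained wild-type mouse wtt-137, 1 member passed as lower on average, as did 2.84% of all probe sets.

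Mrps18b, one of several mitochondrial relatives of a bacterial small-subunit protein, had the smallest p for the transgene. It read 559, 673, 619.8, 608 and 652 in untrained wild-type mice and 597, 569.8, 598, 765 and 861 in trained ones. Transgenic mice gave 601, 562, 539.9, 518 and 607 untrained and 559, 528, 508, 514 and 546 trained. In trained mice the genotypes did not overlap, and the untrained groups did. The trained difference was -0.30 ± 0.09 log2 (adjusted p = 0.225) and the averaged one -0.21 ± 0.06 log2 (adjusted p = 0.086).

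Mrpl32, a large-subunit protein that a mitochondrial protease must trim before assembly, read 555, 543, 486, 459.7 and 549 in untrained wild-type mice and 542, 504, 495, 578 and 631 in trained ones. The transgenic mice read 523, 508, 475, 416 and 579.6 untrained and 431, 473, 396, 460.3 and 468 trained. Trained mice of the genotypes did not overlap in this gene, and the difference was -0.27 ± 0.08 log2 (adjusted p = 0.228). The third member without overlap, also lower in trained transgenic mice, was Mrps31, a small-subunit protein particular to mitochondria, with -0.14 ± 0.06 log2 (adjusted p = 0.365). Of all probe sets 1.69% were lower without overlap in this contrast. Slow fibre markers moved with genotype as well: 4 of 5 fell in transgenic mice, with a median of -1.51 log2. Their summed intensity ran from 2560 to 10900 untrained and 4270 to 8330 trained in wild-type mice and from 1430 to 3120 untrained and 1490 to 2030 trained in transgenic mice. Of the 4 tested endothelial markers 1 fell, Cdh5, with a difference of -0.30 log2, and 1 lay above 0. Of the 3 tested T and B cell markers 1 fell, Ighm of B cells, with a difference of -0.72 log2. The other 2 lay above 0, and the median of that list was 0.023 log2. The part of fibre type in the members' values was not tested.

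Other components of mitochondrial translation were set beside the ribosome, averaged over genotypes. Of 4 ribosomal proteins with other names none passed, with a median of 0.168 log2 (4 of 4 above 0, 3 at an unadjusted p under 0.05). Dap3, a small-subunit protein that binds GTP, gave 0.10 ± 0.04 log2 (adjusted p = 0.161). In a list of 7 translation factors and proteins that interact with the ribosome 3 rose. Letm1, an inner membrane protein that interacts with the ribosome, rose by 0.35 ± 0.07 log2 (adjusted p = 0.00926). Tufm, the elongation factor that delivers transfer RNA, rose by 0.23 ± 0.06 log2 (adjusted p = 0.025). Mtif2, the initiation factor, rose by 0.19 ± 0.04 log2 (adjusted p = 0.0182). Gfm1, the translocation factor, gave 0.218 ± 0.065 log2 (adjusted p = 0.0565).

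Enzymes that charge mitochondrial transfer RNA held 1 gene of 12 that rose, Fars2, by 0.14 ± 0.04 log2 (adjusted p = 0.0406), and a median of 0.051 log2. Factors of ribosome assembly and RNA modification held 1 of 18 that rose, Nsun4, by 0.25 ± 0.05 log2 (adjusted p = 0.00997), and a median of 0.037 log2. Nsun4 is a methyltransferase that acts on mitochondrial ribosomal RNA and helps the subunits join. Genes that copy and transcribe mitochondrial DNA held 0 of 10 past the threshold and 1 at an unadjusted p under 0.05, with a median of 0.033 log2. Tfam, which packages mitochondrial DNA, gave 0.18 ± 0.08 log2 (adjusted p = 0.197), Polrmt, the mitochondrial RNA polymerase, 0.08 ± 0.05 log2, and Lrpprc, which stabilises mitochondrial messages, 0.05 ± 0.08 log2.

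Among 12 regulators of mitochondrial genes 2 rose and 2 fell. Sirt3, the mitochondrial deacetylase, rose by 0.37 ± 0.08 log2 (adjusted p = 0.0151), and Esrra, a nuclear receptor that drives oxidative genes, rose by 0.24 ± 0.05 log2 (adjusted p = 0.0173). Pprc1, a coactivator, fell, with a difference of -0.44 ± 0.09 log2 (adjusted p = 0.0104). Gabpa, the binding subunit of a factor for respiratory genes, fell, with a difference of -0.28 ± 0.07 log2 (adjusted p = 0.0347). Ppargc1a, the coactivator known to respond to exercise, gave 0.17 ± 0.26 log2 (adjusted p = 0.796), and Nrf1, a factor for nuclear genes of mitochondria, 0.01 ± 0.04 log2 (adjusted p = 0.902).

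The respiratory chain, whose core subunits the mitochondrial ribosome makes, and the cytosolic ribosome give scales for comparison. Of 82 nuclear genes tested in the respiratory chain list 36 rose and 0 fell with training, with a median of 0.146 log2. The list was made by symbol and also holds genes of ATP synthase, such as Atp5g1, and of complex I assembly, such as Ndufaf3. The largest rise there was that of Ndufb10 in complex I, 0.385 log2 (adjusted p = 0.00297). Of 37 cytosolic ribosomal protein genes 0 rose and 1 fell, Rpl4, with a median of -0.022 log2. So 19 of 74 mitochondrial and 0 of 37 cytosolic ribosomal genes rose. Cytosolic values in trained wild-type mouse WTT-144 stood apart, at a median deviation of 0.274, where its mitochondrial ribosomal value was 0.146. The lists were not tested against each other.

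**Figure D5:**
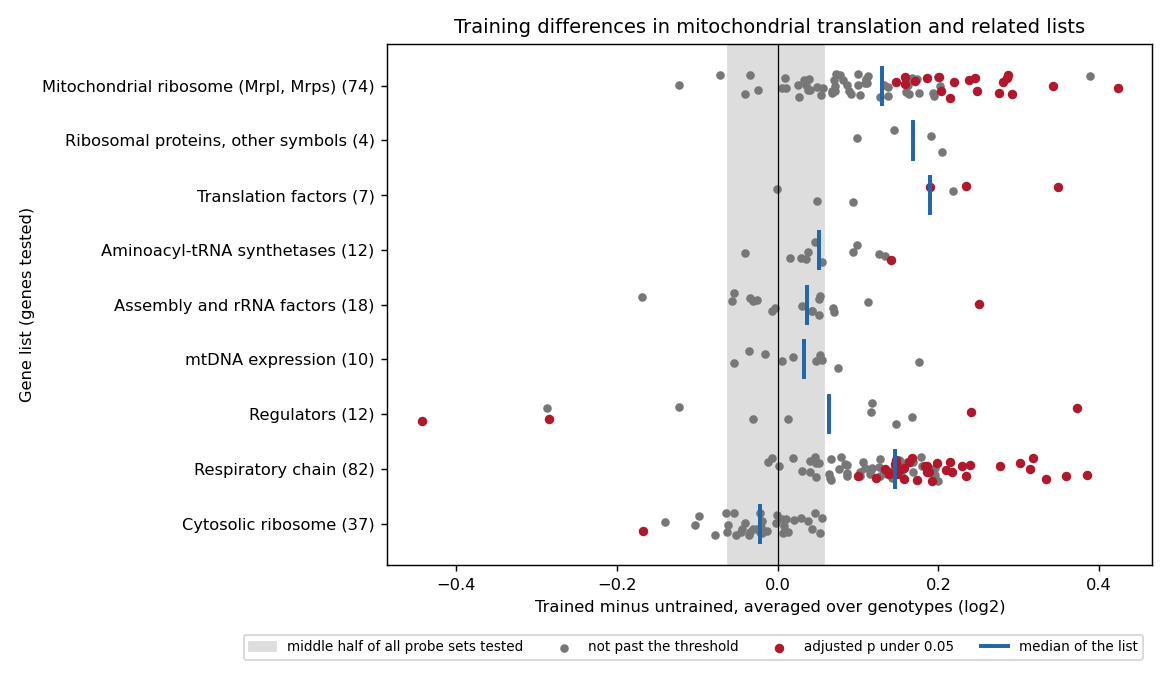
Training difference averaged over genotypes for each tested gene of 9 lists (points, log2; red where the adjusted p is under 0.05), with the list median as a vertical blue bar and the middle part of all probe sets, between their quartiles at -0.062 and 0.058, shaded grey. The medians of the mitochondrial ribosome, 0.129, and the respiratory chain, 0.146, lie right of the shaded band, and that of the cytosolic ribosome, -0.022, lies in it.

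Promoters were read next, since 19 members rose in the same contrast and several regulators of such genes are known by short DNA motifs. RefSeq windows of mouse assembly GRCm38.p6, from 250 bases before to 50 after each gene's start, were at hand for 65 members, 16 of them among the 19. Motifs were searched on both strands as exact letters: GCGCANGCG for NRF1, CCGGAAGT for GABP, AAGATGGCG for YY1, CAAGGTCA for ERR and CACGTG for the E-box that clock activators bind. The NRF1 letters can match both strands at nearly the same place. A match is a description of letters and not a site.

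The stretches below show a match in genes that rose, in capitals, each with its place in the genome, and Mrps12, which held none of the 5 motifs.
Mrpl10, NRF1, chr11:97041417-97041485, plus strand: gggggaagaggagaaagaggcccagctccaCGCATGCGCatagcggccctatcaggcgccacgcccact
Mrpl45, NRF1 at 3 places, chr11:97315566-97315745, plus strand: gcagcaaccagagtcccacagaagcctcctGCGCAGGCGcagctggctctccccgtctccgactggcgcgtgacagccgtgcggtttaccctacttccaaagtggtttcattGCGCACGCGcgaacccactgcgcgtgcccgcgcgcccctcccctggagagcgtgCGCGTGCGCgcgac
Mrpl43, GABP, chr19:45006417-45006484, minus strand: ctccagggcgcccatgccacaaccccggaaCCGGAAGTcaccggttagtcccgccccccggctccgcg
Mrps24, YY1, chr11:5707657-5707686, minus strand: cgtcccgggtcgcgccggcccAAGATGGCG
Mrpl2, E-box, chr17:46646060-46646125, plus strand: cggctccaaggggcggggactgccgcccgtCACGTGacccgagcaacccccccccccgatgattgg
Mrps12, none, chr7:28741822-28741921, minus strand: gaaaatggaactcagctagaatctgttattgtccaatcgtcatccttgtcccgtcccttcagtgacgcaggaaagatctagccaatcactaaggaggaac

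The NRF1 letters were in 15 of 65 member promoters, 23.1%, against 7.03% of all genes in the promoter table and 14.8% of genes with a tested probe set. GABP letters were in 16.9% of members, against 4.31% and 8.86%, and YY1 letters in 10.8%, against 1.64% and 3.68%. Together, any of these 3 was in 32 of 65 members, 49.2%, against 11.9% and 24.6%. The ERR letters were in 2 members, 3.08%, against 1.76% and 1.41%, and the E-box in 5, 7.69%, against 8.09% and 12.1%. By response, any of NRF1, GABP or YY1 was in 4 of 16 that rose and in 28 of 49 others, and the E-box in 1 of 16 and 4 of 49. The difference between these shares was not tested.

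Many members share a promoter region with a gene read the opposite way. Within 500 bases 21 of 65 members, 32.3%, had such a neighbour, against 10.9% of all genes in the table and 16.9% of genes with a tested probe set. Of the 21 neighbours 13 were tested, 2 rose, 2 fell and the median was 0.019 log2. Of all probe sets 2.41% rose and 2.59% fell. The 2 neighbours that rose were Ndufb5 and Mrpl46, and Mrpl46 and Mrps11 are members counted here as neighbours of each other. The neighbour of Mrps12 is Sars2, the mitochondrial enzyme that charges serine transfer RNA, which gave 0.10 ± 0.04 log2 (adjusted p = 0.176). Mrpl46 starts 42 bases from Mrps11, itself a member, and these gave 0.25 ± 0.05 and 0.07 ± 0.04 log2. Mrpl47 lies 308 bases from Ndufb5 of complex I, which rose by 0.18 ± 0.04 log2, while Mrpl47 gave 0.07 ± 0.07 log2. Mrpl32 lies 205 bases from Psma2, a proteasome subunit, which fell (-0.31 log2, adjusted p = 0.0259), and Mrpl18 lies 238 bases from Tcp1, a chaperonin subunit, which fell (-0.11 log2, adjusted p = 0.049).

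Of the 74 genes, 33 had more than 1 probe set. Among their other probe sets 33, of 22 genes, were bright enough to be tested, 28 had the sign of the one used and 5 the opposite sign. For genes among the 19, 6 of 6 other tested probe sets were above 0. Probe sets that can bind several transcripts stood for 28 members. Without such probe sets 8 of 46 members rose, against 1.91% of all probe sets left, and 9 of the 19 genes could be read.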

How the data were processed

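RNA of skeletal muscle from 20 mice was measured on 1 Affymetrix 3' expression array per mouse, labelled with biotin per the labels. The authors deposited linear intensities per probe set, with array medians from 157 to 175. How they were summarised, and whether or how they were scaled between arrays, is not stated in the labels. Arrays have no counting depth, and their number limits the precision. Intensities were used as deposited, as log2 after adding 66.7, the 20th percentile. Probe sets with a mean above the 40th percentile (13576 of 22626) were fitted with limma 3.58.1 in R 4.3.3: 4 group means, 7 contrasts, a variance trend, empty cells left missing, two-sided tests, and Benjamini-Hochberg adjusted p-values with a threshold of 0.05. Symbols came from the platform annotation, and 74 of 74 member symbols were in the RefSeq table of GRCm38.p6.

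The fit was tested on simulated data. The members, lists and tests were chosen with earlier results of these data known, so none is independent evidence. Members named singly were drawn by a rule. It took those past the threshold in any contrast, the 3 highest and 3 lowest differences of each, and the 5 brightest and 3 dimmest. It also took members without overlap between all trained and untrained or all transgenic and wild-type mice, and 13 chosen for their known roles. Of these, Mrpl1, Mrpl15, Mrpl50, Mrpl51, Mrps9, Mrps26 and Mrps28 are not described above. The averaged training difference of Mrpl50 was -0.07 ± 0.07 log2, and the others of these lay above 0 without passing the threshold. Mrpl4, Mrps6, Mrps11 and Mrps31 and the promoter neighbours were named after their values were seen, as was the second tested probe set of a gene. Alternatives were other scalings, constants, filters, variance settings and probe set rules, array weights, covariates, and leaving out mice. Mouse numbers in the titles are not shared between groups.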

Additional observations from a re-analysis of the deposited data

Results flagged for a closer look

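Mice that stood apart in their group of 5, or of 4 where a cell was empty, were looked for in 42 members and 4 groups, 168 groups of values in all, and 10 were found; chance alone gives about 1 in 20. In the array of trained wild-type mouse wtt-137, which has 822 empty cells, Mrpl11 read 1490 against 1050 to 1160 in the other 4 mice, Mrpl2 read 1550 against 1430 to 1440, Mrpl48 read 793 against 476 to 544, and Mrps16 read 1120 against 905 to 939. In the same group Mrpl20 read 773 in mouse WTT-141, against 668 to 680 in the 3 others measured, and Mrps24 read 975 in mouse wtt-134, below 1110 to 1150. Untrained transgenic mouse TGUT-147 gave 620 for Mrpl47, against 418 to 472, and 352 for Mrpl55, against 329 to 335. Untrained transgenic mouse TGUT-131 gave 1530 for Mrpl52, against 1330 to 1380, and trained transgenic mouse TGT-143 gave 410 for Mrpl55, against 349 to 363.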

How the results depend on the processing

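The members' median difference with training, averaged over genotypes, stayed between 0.096 and 0.155 log2 over 14 other settings and between 0.107 and 0.151 when each mouse was left out. The number of members that rose (19) was 26 with quantile normalization, 13 with arrays centred on their medians, 15 without a filter, 39 with array weights, 8 without probe sets that can bind several transcripts (fewer genes tested), and 0 with the clock score, an alternative chosen after seeing the data. Of all probe sets, 3.57%, 1.5%, 1.02%, 8.61%, 1.91% and 0% rose in these settings, in that order, against 2.41%, so the count over all probe sets moved as well. The 19 genes, where measured, stayed above 0 in each of these settings. Leaving out each mouse gave 12 to 26, with 1.18% to 4.67% of all probe sets. In transgenic mice alone the count (1) was 5 with quantile normalization, where 0.685% of all probe sets rose. With the filter at the 60th percentile it was 2 (0.409%). Array weights gave 25 higher and 1 lower, where 7.01% of all probe sets were higher and 10.4% lower. Without both arrays rich in empty cells it was 4 (0.398%), and with the Gapdh ratio 6 (0.862%). It was 0 with centred arrays, without a filter, without probe sets of several transcripts, with the clock score, or with only the groups compared. Leaving out each mouse gave 0 to 12. With array weights 3 members rose in wild-type mice, against 0.508% of all probe sets. With the same weights 2 members were lower in trained transgenic than in trained wild-type mice, against 4.88% of all probe sets. The interaction median was then 0.044 (main -0.027). Members with every trained above every untrained mouse (1) were 3 with quantile normalization and 1 to 5 when each mouse was left out. The share of all probe sets is not given beside these counts, so they have no baseline. Members lower in transgenic mice on average were 0 to 1 when each mouse was left out. Where no construction is named, the cause was not tested. No result named above changed from higher to lower past the threshold. The transgene medians lie near 0 and changed sign in places: among trained mice they ran from -0.073 to 0.004. Of 1918 gene results 1758 kept their direction and side of the threshold, 48 gained and 112 lost it. No paired analysis was possible because the mice of different groups carry no shared numbers. Signal over background was not measured here, so how far the differences of dim members are understated was not tested.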
